A study of Mus musculus with 25 samples.

Results

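The comparison concerns macrophages and microglia taken from the same libraries 10 days after spinal cord injury in the mouse. Each cell of the deposited annotation carries a numeric cell type code. A day 10 library was used if it held at least 20 cells of code 1 and at least 20 cells of code 2, and the unique molecular identifiers (UMIs, 1 per captured RNA molecule) of each code were then summed within the library. This rule kept 4 of the 5 day 10 libraries and 3117 cells, 2746 of code 1 and 371 of code 2, out of 30958 cells in 25 libraries.

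The study profiled myeloid cells that were sorted from the lesion (5 mm of cord) and captured with 10x Genomics 3' chemistry, each library holding tissue of 1 to 3 mice. All mice carried Cx3cr1CreERT2, a knock-in that places an inducible Cre recombinase in the locus of the fractalkine receptor, so every sort depended on that locus. The infiltrating 2 library (male) was the RFP-/YFP+ fraction of Cx3cr1CreERT2:R26tdTomato mice and held 36 code 1 and 116 code 2 cells. The resident 1 library (female) was the RFP+/YFP+ fraction of the same strain and held 641 and 134 cells. The mixed 1 and mixed 2 libraries (both male) were YFP+ cells of Cx3cr1CreERT2 mice and held 1151 and 53, and 918 and 68 cells. By these codes the RFP-/YFP+ sort still held microglia and the RFP+/YFP+ sort held macrophages. Sort, strain and sex are shared by both sums of a library, and age and inducer schedule are not given in the sources used here. The early reference came from the 8 libraries of days 1 to 3 that met the same rule (10280 cells), of which 5 were mixed and 3 resident sorts, and the day 21 reference from 1 infiltrating and 1 mixed library.

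Microglia are the resident macrophages of the central nervous system. They arise from yolk sac progenitors and renew locally, and they keep a gene programme that includes the purinergic receptor P2ry12 and the transcription factor Sall1. After cord injury, blood monocytes that carry the chemokine receptor Ccr2 and the surface protein Ly6c2 enter the lesion and become macrophages, which take up myelin and cell debris and turn on genes of lipid handling such as Apoe, Gpnmb and the fatty acid binding proteins Fabp4 and Fabp5. The question for day 10 is which differences between the 2 cell types remain once the infiltrating cells have spent days in the lesion.

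The codes carry no names in the files, so they were read against marker genes. Of 9 microglia markers, 9 reached 20 counts per 1000000 UMIs (CPM) and were at least 2-fold higher in code 1 (on CPM + 5, libraries summed), and of 8 monocyte and 9 general macrophage markers, 8 and 5 met the same rule in code 2. Code 1 is therefore called microglia and code 2 macrophages. The names stand for the whole codes and not for each cluster in them. Markers of other cell types, summed over 5 to 9 genes a type, were not absent. They were below the microglia markers in code 1 and below the general macrophage markers in code 2. The monocyte markers ranged from 98.3 to 6025 CPM over the macrophage sums. Their lowest value was below the lowest of the border macrophage markers there, 173.4 CPM. Neutrophil markers reached 279.9 CPM in a macrophage sum and 150.9 CPM in a microglia sum, B cell markers 244.04 and 130.8 CPM, oligodendrocyte markers 129.8 and 297.2 CPM, and markers of border macrophages 584.6 and 308.7 CPM. Dendritic, T and NK, and endothelial markers stayed at or below 61.01 CPM in every sum, and in the macrophage sums Cd3e, Trac, Ly6g, Cd79a and Col1a1 were at 0 in all 4 libraries. The part of these cells in the results was not tested. The codes describe the expression of these same cells, so a difference between codes describes what separates them, and a p-value says only how well the 4 libraries repeat it.

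Depth differed between the sums and also within them. Microglia sums held 84112 UMIs in infiltrating 2 and 2254738 to 4895830 in the other 3 libraries, and macrophage sums held 604811 to 1078356 UMIs. The median percent of mitochondrial UMIs per cell, a sign of RNA quality, was 1.61, 1.03, 1.45 and 1.60 in the macrophages of infiltrating 2, resident 1, mixed 1 and mixed 2 and 0.351, 0.0731, 0.615 and 0.865 in their microglia. It was thus higher in macrophages in 4 of 4 day 10 libraries, against 3 of 8 early ones, and its part in the results was not tested. The macrophage code was not 1 population at day 10. Cluster 9 held 157 of the 371 cells, and Ahnak2, Cdo1, Adam33 and Fabp4 were its leading genes against the other macrophage-code cells. Cluster 3 held 140 macrophage-code cells and 1337 microglia. Its macrophage-code cells were led by Sparc, Lag3, Cst7 and Serpine2, genes that lay on the microglial side of the comparison below. They are counted as macrophages because the deposited code says so. Cluster 13, led by Gm9733, Ear2, Klf2, Ifitm6 and Chil3, held 33 cells. Cluster 10 held 23 cells, led by the replication histone Hist1h1b, the granule protease Elane, Hist1h2ae and the protease Prtn3. The granule genes Mpo and Ctsg came next. These granule genes are not among the macrophage markers used above. The cells of cluster 10 are counted as macrophages only because the deposited code says so. With cluster 9 as the only macrophages, 406 genes differed at day 10.

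The 4 libraries mixed these clusters differently. In resident 1, cluster 9 was 81.3% of the macrophage cells and 91.4% of their UMIs, and cluster 13 was absent. Infiltrating 2 drew 57.8% of its macrophage cells from cluster 3. Cluster 10 was 8 of 53 cells in mixed 1 and 12 of 68 in mixed 2, but with a median of 40373.5 and 35956 UMIs per cell it gave 53.0% and 55.9% of the macrophage UMIs of those libraries, against 7.76% in infiltrating 2 and 1.16% in resident 1. The day 10 comparison was therefore also made without cluster 10, where 640 of 6480 genes differed at day 10 (9.88%), 357 higher (5.51%) and 283 lower (4.37%) in macrophages. Gpr141, Ccr2, Hp, Itgb7, Mki67 and the histones Hist1h1a, Hist1h1b, Hist1h2ab and Hist1h3c did not reach the count filter there and have no such test. Over 7190 genes, the log2 ratio of macrophages over microglia had a Pearson r of 0.88 between mixed 1 and mixed 2, of 0.45 to 0.50 between resident 1 and the mixed libraries, and of 0.20 to 0.26 between infiltrating 2 and the others, as a description across genes that share depth and composition.

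**Figure D1:**
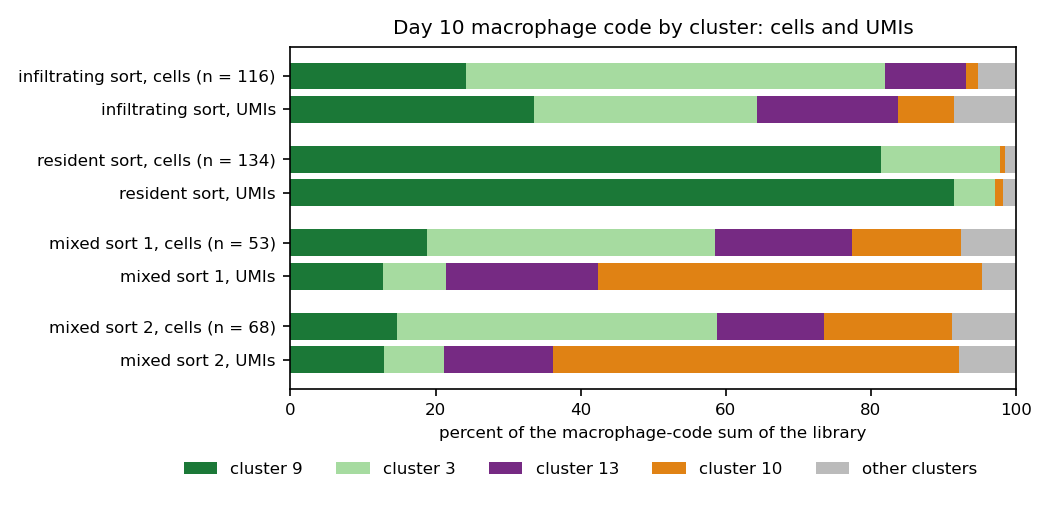
Stacked bars give the percent of macrophage-code cells (upper bar of each pair) and of their UMIs (lower bar) that each cluster holds in the 4 day 10 libraries. Cluster 10 takes 15.1% and 17.6% of the cells but 53.0% and 55.9% of the UMIs of mixed 1 and mixed 2, and cluster 9 takes 91.4% of the UMIs of resident 1.

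At day 10, 522 of 7190 genes differed between the types (7.26% of genes tested, edgeR quasi-likelihood test with library as a block, adjusted p under 0.05). Of these, 266 were higher in macrophages (3.70%) and 256 lower (3.56%), and the median log2 difference over all genes was 0.02. Among called genes with the same direction in all 4 libraries and at least 50 CPM in the higher type, those furthest apart on the microglial side were, in order, the matricellular glycoprotein Sparc, the junction protein Jam2, the serine protease inhibitor Serpine2, the cathepsin inhibitor Cst7, Nav3 and the sialic acid receptor Siglech. On the macrophage side they were the orphan receptor Gpr141, coagulation factor F10, the chitinase-like protein Chil3, haptoglobin Hp, Sirpb1c and Ccr2. Plac8, with a larger difference than F10, is not in this order because resident 1 held 0 UMIs of it in both types. The count depended on single libraries: it was 237 without mixed 1 and 252 without mixed 2, and 1065 without resident 1.

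The start regions of 3 of these genes are shown because they move to opposite sides of the comparison: Cst7 on the microglial side, and Gpr141 and Chil3 on the macrophage side. Each sequence is the 250 bases before the RefSeq start (build GRCm38.p6), 5' to 3' on the gene's strand, and overlaps no GENCODE gene. Capitals mark the letters GGAA on either strand (TTCC on the other), the core read by ETS factors such as PU.1, a master regulator of all macrophages.
Cst7, chr2:150570165-150570414, plus strand: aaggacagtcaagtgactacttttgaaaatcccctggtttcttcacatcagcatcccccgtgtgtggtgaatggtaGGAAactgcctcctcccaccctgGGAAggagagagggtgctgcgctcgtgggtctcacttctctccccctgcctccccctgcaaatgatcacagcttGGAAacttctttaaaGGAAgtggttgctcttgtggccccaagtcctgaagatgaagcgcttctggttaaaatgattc
Gpr141, chr13:19824258-19824507, minus strand: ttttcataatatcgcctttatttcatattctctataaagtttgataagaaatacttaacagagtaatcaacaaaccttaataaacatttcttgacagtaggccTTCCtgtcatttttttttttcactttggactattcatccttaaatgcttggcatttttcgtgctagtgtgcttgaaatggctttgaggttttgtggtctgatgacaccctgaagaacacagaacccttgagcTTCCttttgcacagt
Chil3, chr3:106167565-106167814, minus strand: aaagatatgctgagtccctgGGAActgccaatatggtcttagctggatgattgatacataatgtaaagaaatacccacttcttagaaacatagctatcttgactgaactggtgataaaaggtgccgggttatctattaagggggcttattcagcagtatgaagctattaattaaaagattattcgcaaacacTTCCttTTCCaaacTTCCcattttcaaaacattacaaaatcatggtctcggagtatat
The core occurred 4 times before Cst7, 2 times before Gpr141 and 4 times before Chil3. It is common: 93.4% of all 32851 promoters of this length hold it. The longer form GAGGAA, searched on both strands and overlapping the core, was in none of the 3, in 1 of 17 matched promoters of the 20 genes with the largest differences, and in 23.3% of all promoters. RefSeq promoters matched 15 of those 20 genes.

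Sparc, which binds collagen and is abundant in microglia, was at 797, 2608, 2340 and 2421 CPM in the microglia of infiltrating 2, resident 1, mixed 1 and mixed 2. In the macrophages of the same libraries it was at 3.31, 78.8, 58.6 and 59.9 CPM. The lowest microglial value was thus above the highest macrophage value, and the log2 difference was -5.58 (SE 0.42, adjusted p = 1.1e-04). Its direction in 4 of 4 libraries is required by the rule above that picked it. Serpine2, an inhibitor of thrombin and plasmin-type proteases, was at 297, 735, 706 and 611 CPM in microglia and at 14.9, 17.6, 30.9 and 22.2 CPM in macrophages. It did not overlap between types either, with a log2 difference of -4.79 (SE 0.30, adjusted p = 6.3e-05). Such a lack of overlap was not rare: 868 of the 7190 genes tested (12.1%) had it. The tetraspanin Cd81 was at 1296, 3103, 2795 and 2785 CPM in microglia and at 134, 120, 148 and 106 CPM in macrophages (log2 difference -4.26, SE 0.33). The microglia of infiltrating 2 were the lowest of the 4 for all 3 genes.

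Cst7 encodes cystatin F, which restrains lysosomal cathepsins and is switched on in activated microglia. It was at 642, 1381, 1023 and 978 CPM in microglia and at 6.61, 27.8, 52.1 and 124 CPM in macrophages, again without overlap (log2 difference -4.68, SE 0.51, adjusted p = 8.8e-04). P2ry12, the ADP receptor that guides microglial processes, was at 178, 271, 468 and 505 CPM in microglia and at 52.9, 21.3, 32.5 and 18.9 CPM in macrophages (log2 difference -3.58, SE 0.48, adjusted p = 0.0020).

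Cells of type code 3 in the same libraries, which carried 32066 to 42252 CPM of the MHC class II chaperone Cd74, give a level for these genes in another cell type. In those cells Sparc was at 0 in infiltrating 2, mixed 1 and mixed 2, P2ry12 was at 0 to 14.0 CPM and Cst7 at 0 to 8.85 CPM, and resident 1 held no such cells. Not every microglial-side gene was that low there: Serpine2 was at 0, 17.7 and 27.9 CPM, a range that overlaps the macrophages, and Siglech, which plasmacytoid dendritic cells also express, was at 22.5, 17.7 and 316 CPM, above the 283 CPM of the microglia in mixed 2. The macrophage levels of Sparc sat mainly in cluster 3: 288 CPM there, against 6.505 CPM in cluster 9, 18.4 CPM in cluster 13 and 0 in cluster 10. In the microglia of cluster 3 it was at 2110 CPM. The libraries differed within the macrophage-code cells of cluster 3: Sparc was at 10.7 CPM (2 UMIs) in infiltrating 2 and at 738, 490 and 466 CPM in resident 1, mixed 1 and mixed 2. Lyz2 in these cells was at 24892 to 51949 CPM in the 4 libraries, against 3382 CPM in the microglia of cluster 3.

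Not every microglial marker separated the types in all libraries. Tmem119, a membrane protein of resting microglia, was at 95.1, 267, 301 and 286 CPM in microglia and at 164, 49.1, 29.3 and 32.2 CPM in macrophages. The macrophages of infiltrating 2 were above its microglia, and the log2 difference of -2.25 did not pass the test (adjusted p = 0.062). The call depended on the setting. It passed in the fit over all phases (-2.26, adjusted p = 0.0031), in DESeq2 (-2.23, adjusted p = 0.0061) and without infiltrating 2 (-2.98, adjusted p = 0.0046), while without mixed 1 it was -1.78 (adjusted p = 0.25) and with cluster 9 as the only macrophages -0.84 (adjusted p = 0.36). Sall1 did not reach the count filter of the day 10 test: it was at 0, 39.0, 53.9 and 71.0 CPM in microglia and at 0 to 6.51 CPM in macrophages. It was called lower in macrophages in the fit over all phases (-4.50, adjusted p = 1.1e-04) and in the day 10 fit without cluster 10.

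**Figure D2:**
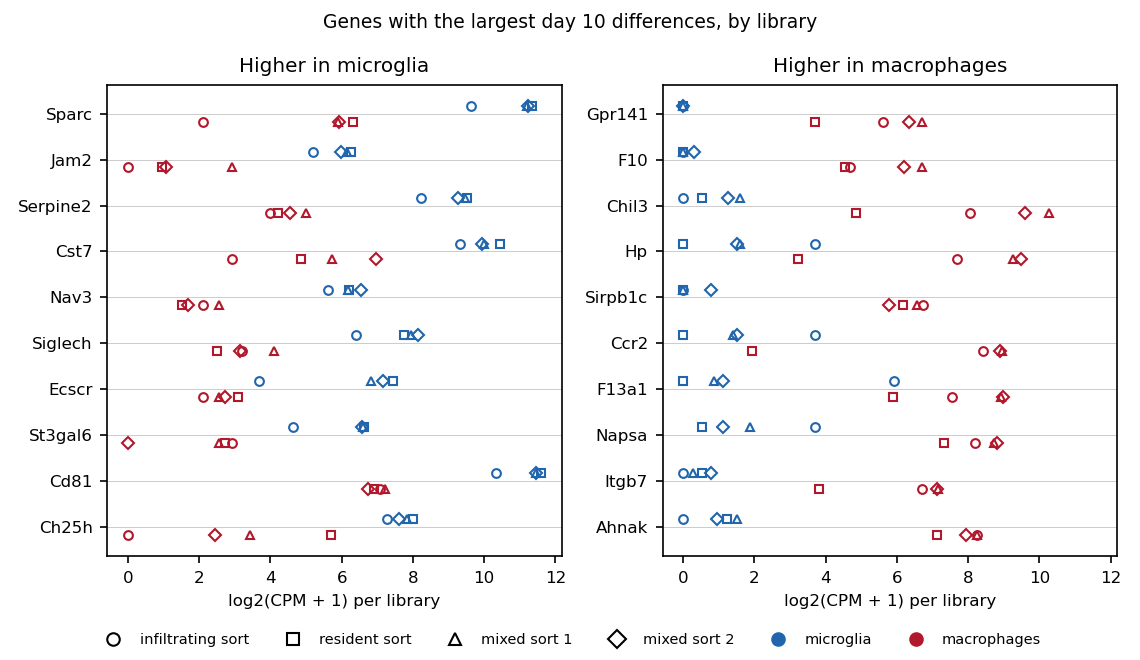
Each symbol is 1 library and gives log2(CPM + 1) in microglia (blue) or macrophages (red) for the 10 genes furthest apart in each direction at day 10 under the rule given above. Microglia of infiltrating 2 (circles) are the lowest for Sparc, at 797 CPM, and macrophages of resident 1 (squares) are the lowest for Chil3, at 27.8 CPM.

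Several of the genes furthest apart on the macrophage side are monocyte genes, and Chil3, Ccr2 and Hp were highest in clusters 13 and 10. Chil3, made by immature and alternatively activated myeloid cells, was at 264, 27.8, 1225 and 768 CPM in macrophages and at 0, 0.444, 2.04 and 1.40 CPM in microglia. All 4 macrophage values were above all microglial ones, with a log2 difference of 8.77 (SE 0.49, adjusted p = 6.2e-05). Ccr2, the receptor that brings monocytes to the lesion, was at 342, 2.78, 495 and 475 CPM in macrophages and at 11.9, 0, 1.63 and 1.87 CPM in microglia (log2 difference 7.72, SE 0.50, adjusted p = 6.3e-05). Its types overlapped, as the macrophages of resident 1 were below the microglia of infiltrating 2. Resident 1, the library without cluster 13, was the lowest of the 4 macrophage sums for Gpr141, F10, Chil3, Hp, Ccr2, F13a1, Napsa, Itgb7 and Ahnak. It was also the only female library and the only resident sort of the 4. Its deposited SLX code was 19290, against 17850 in infiltrating 2, mixed 1 and mixed 2. These cannot be told apart.

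By cluster, Chil3 was at 3029 CPM in cluster 13, 261 CPM in cluster 10, 34.0 CPM in cluster 9 and 26.6 CPM in cluster 3 macrophages. Ccr2 was at 1004, 517, 25.3 and 7.99 CPM in the same clusters. Gpr141 had 177 UMIs in the macrophages and 0 in the 11516697 UMIs of the microglia, which makes it at least 212-fold higher against a floor of 3 counts over the group. Ahnak, a giant scaffold protein, was at 306, 138, 303 and 244 CPM in macrophages and at 0 to 1.84 CPM in microglia (log2 difference 7.32, SE 0.38). It was also high in cluster 9, at 132 CPM, and with cluster 9 as the only macrophages its log2 difference was 6.39. Sirpb1c and the histone genes below have near-identical copies, and their values are uncertain where reads could be shared.

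Some genes of antigen presentation were higher in macrophages. The class II chain H2-Aa was at 1303, 199, 467 and 392 CPM in macrophages and at 95.1, 3.105, 6.54 and 22.0 CPM in microglia, with no overlap (log2 difference 5.00, SE 0.48, adjusted p = 4.6e-04). Cd74 was at 4226, 528, 1564 and 1293 CPM against 321, 127, 109 and 229 CPM (log2 difference 2.99, SE 0.34, adjusted p = 0.0010). The call for Cd74 was lost without cluster 10 (2.73, adjusted p = 0.081) and with cluster 9 as the only macrophages (0.84, adjusted p = 0.75). Of 10 class II genes tested, H2-Aa, H2-Eb1, Cd74 and H2-Ab1 were higher in macrophages and H2-Oa and H2-Ob, which damp peptide loading, were lower, with a median of -0.55.

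**Figure D3:**
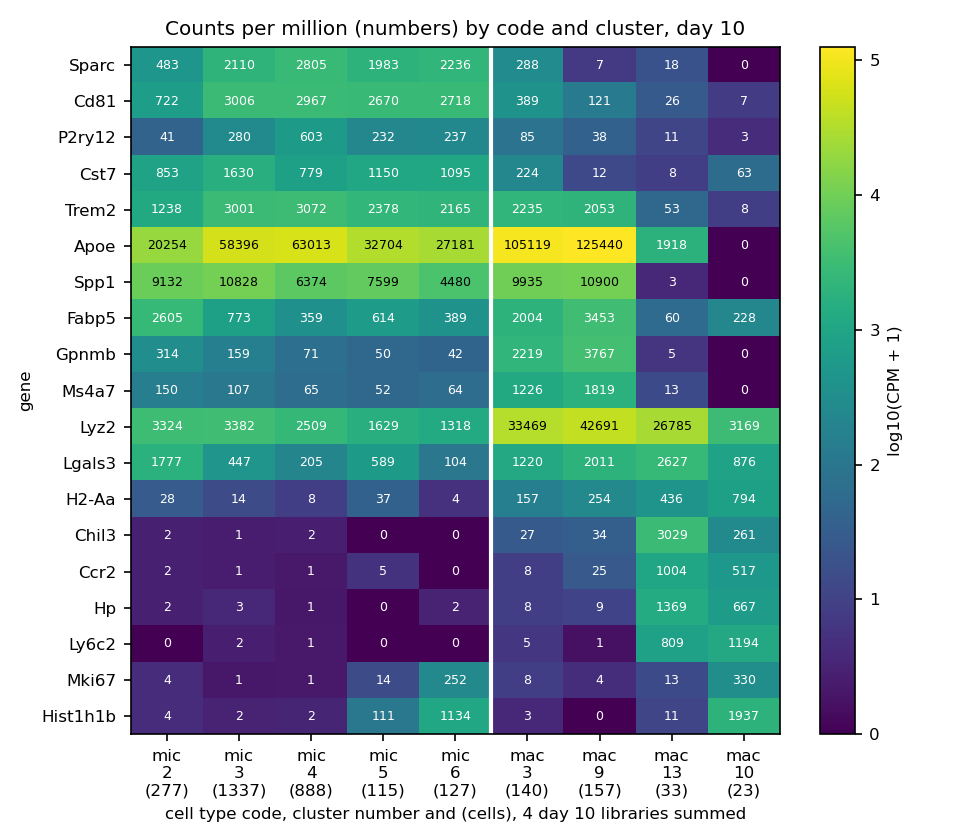
Each column is a type code and cluster (cells in brackets, 4 day 10 libraries summed, clusters of at least 20 cells) and each cell prints CPM, with the colour on a log10(CPM + 1) scale. Chil3, Ccr2, Hp and Ly6c2 are high in macrophage clusters 13 and 10, Gpnmb, Ms4a7 and Apoe in clusters 9 and 3, and Sparc in the microglial columns, at 483 to 2805 CPM.

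Gene lists placed these single genes in context, each read beside the 3.70% of genes that were higher and the 3.56% that were lower. Of 23 homeostatic microglia genes tested, 17 were lower in macrophages and 0 higher, with a median log2 difference of -2.54. They included Sparc, Serpine2, Siglech (-4.60) and the crystallin gene Crybb1 (-3.85). Of 21 infiltrating macrophage genes tested, 18 were higher and 1, Pf4, was lower, with a median of 2.81. The Pf4 call was lost without cluster 10 and in the fit over all phases, where 0 genes of this list were lower. The higher genes included Plac8 (9.25), F10 (8.79) and the integrin subunit Itga4 (3.28). The homeostatic list holds every microglia marker that was used to name the codes. The infiltrating list holds every general macrophage marker and some of the monocyte markers. The results of both lists thus partly repeat the values used for that naming.

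Damage-associated microglia genes, which microglia turn on around lesions, gave 11 of 23 tested lower in macrophages, 1 higher (Gpnmb) and 11 not called (median -1.48). The lower ones included the cholesterol hydroxylase Ch25h (-4.13) and the growth factor Csf1 (-3.73). Of 11 chemokine ligands tested, 0 were higher and 5 lower: Ccl3 (-3.09), Ccl4 (-3.55), Ccl5 (-2.34), Cxcl14 and Pf4. The list median was -1.71, and without cluster 10 the first 4 of these were lower. Ccl3 was at 262, 838, 409 and 522 CPM in microglia and at 47.9, 269, 37.4 and 14.4 CPM in macrophages, where resident 1 was high enough to overlap the lowest microglial value.

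S100 and annexin genes, calcium-binding proteins of mobile myeloid cells, were on the macrophage side: 7 of 13 tested were higher and 1, Anxa3, was lower (median 1.79). S100a6 was at 840, 36.2, 1352 and 1360 CPM in macrophages and at 3.55 to 11.9 CPM in microglia, without overlap (log2 difference 6.80). Complement genes were split, with 1 higher (Cd93) and 5 lower of 13 tested, C1qa, C1qb, C1qc and C5ar1 among the lower (median -0.76). Of 23 lysosomal hydrolases, 5 were lower and 0 higher (median -1.07). Among 19 myeloid transcription factors, Runx3 (5.15) and Klf4 (2.89) were higher, and Etv5 and Hif1a (-1.50) were lower. Without cluster 10, Runx3 and Cebpb were called higher and Sall1, Mef2c and Hif1a lower, and Klf4 and Etv5 were not called.

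The other lists held calls in both directions or few calls. Of 19 lipid handling genes tested, Fabp4 was higher and Ch25h and Lpl lower (median -0.17), and of 11 cytokine and growth factor genes Csf1, Pdgfb and Igf1 were lower (median -0.70). Of 18 integrin and adhesion genes 4 were higher and 2 lower, of 13 Toll-like receptor genes 2 and 2, of 17 Fc and inhibitory receptors 3 and 3, and of 17 glycolysis genes 1 and 2. Of 9 matrix protease genes 0 were higher and 3 lower, and of 6 chemokine receptors Ccr2 and Cxcr4 were higher. In the heme and iron, TGF-beta, immediate early and interferon lists, 1 gene each was higher (Gclm, Tgfbi, Fos and Ifitm3) and 0 were lower, of 14, 12, 13 and 16 tested. Of the cytokine genes, the Igf1 call (-1.67, adjusted p = 0.022) was lost without infiltrating 2 (adjusted p = 0.074), without mixed 1 (0.094) or without mixed 2 (0.095), and the value was -0.44 without clusters 10 and 13 (adjusted p = 0.38).

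Several list values depended on cluster 10, whose removal left the median over all genes at 0.01. Without it, 9 of 17 interferon genes were higher and their median moved from 0.51 to 1.25. The lipid handling genes then had Fabp4, Pltp and Lipa higher and Ch25h, Lpl and Apoc1 lower, and their median turned from -0.17 to 0.24. Of the lysosomal hydrolases 8 were lower and 2, Lipa and Psap, higher, with a median of -0.56. The damage-associated genes had 11 lower and 2 higher, Gpnmb and Lgals3, with a median of -0.87. The medians of the heme and iron (0.37), immediate early (0.08) and Fc receptor (0.02) lists turned positive as well, from -0.08, -0.42 and -0.49. The homeostatic list (19 of 23 lower, median -1.97) and the infiltrating list (16 of 18 higher, median 3.14) kept their direction.

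Fewer genes separated the types at day 10 than early. On days 1 to 3, 3665 of 9596 genes differed (38.2%), 1846 higher (19.2%) and 1819 lower (19.0%) in macrophages, in a fit over all phases. In that same fit day 10 gave 1469 genes (15.3%), 832 higher (8.67%) and 637 lower (6.64%). The early comparison rested on 8 libraries and the day 10 comparison on 4, and the part of that in the counts was not tested. Of the 1846 genes higher in early macrophages, 442 were also higher at day 10 (23.9% of the early list and 53.1% of the 832 at day 10), 71.0% kept the sign, and the median log2 difference was 1.12 early and 0.35 at day 10. Of the 1819 lower genes, 479 were also lower (26.3% of the early list and 75.2% of the 637 at day 10), 59.2% kept the sign, and the median was -1.16 early and -0.26 at day 10. Calls in the opposite direction at day 10 were made for 16 of the higher and 170 of the lower genes. Without cluster 10 these were 6 of 1953 and 2 of 1902, 81.3% and 81.4% kept the sign, and the day 10 medians were 0.52 and -0.59. Since the lists were taken at their early extreme, a median nearer to 0 in other libraries is partly built in.

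The test of the difference between phases gave 1011 genes (10.5%): 690 with a higher value of macrophages over microglia at day 10 (7.19%) and 321 with a lower one (3.35%). This count depended on cluster 10. Without its cells it was 200 of 9555 genes (2.09%), 138 higher (1.44%) and 62 lower (0.649%), and with cluster 9 as the only macrophages it was 13. That last fit kept 2 of the 8 early libraries, with 29 and 2676 cells of cluster 9, since the others held fewer than 10 such cells. Without mixed 1 it was 388 and without mixed 2 it was 362. Of the 25 homeostatic microglia genes, Gpr34 was higher and Rhob lower in this test, and of the 25 infiltrating macrophage genes Plac8 and Ms4a6c were higher and Pf4, Thbs1, Ms4a7 and Lgals3 lower. Without cluster 10, Gpr34, Fcrls and Tmem119 were higher and 0 lower in the first list, and Plac8 and Ms4a6c higher and Pf4 and Thbs1 lower in the second. The Lgals3 call (-1.85, adjusted p = 0.032) was lost in 15 of 27 alternatives. For 5 of the genes described above no difference was called: in the fit over all phases the early and day 10 log2 differences were -5.78 and -5.54 for Sparc, -4.39 and -4.62 for Cst7, 7.56 and 8.86 for Chil3, 7.69 and 7.81 for Ccr2, and 4.62 and 5.01 for H2-Aa. Early values and differences between phases are from that fit throughout. This does not show that they were equal: the standard error of the difference was 0.91 for Sparc and 0.89 for Chil3.

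**Figure D4:**
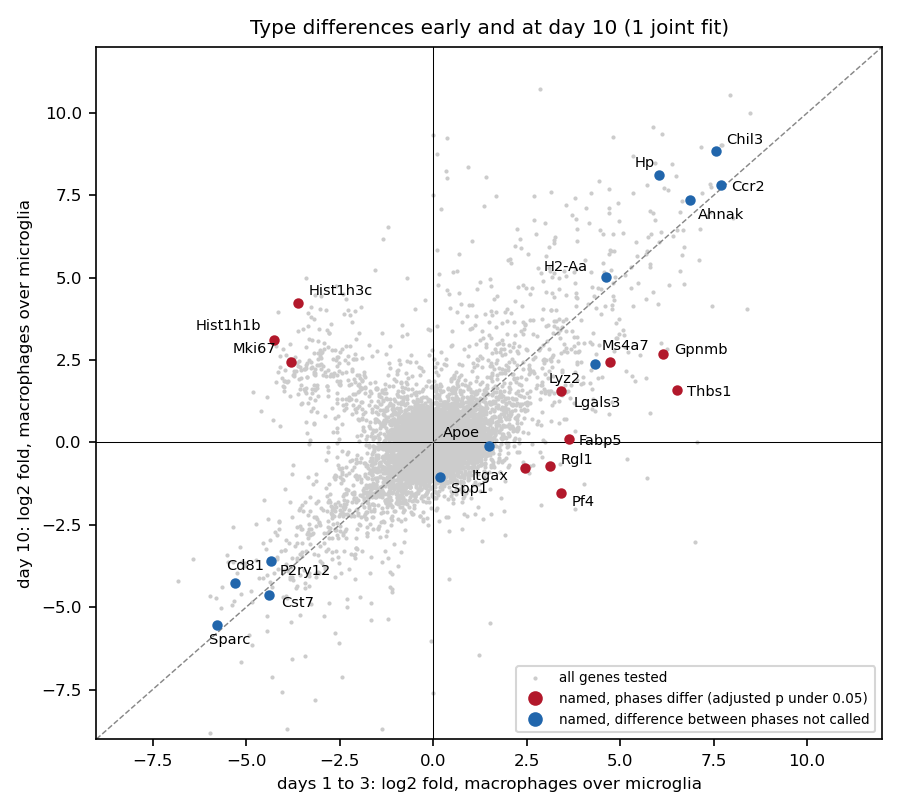
Each point is 1 gene and gives the log2 fold of macrophages over microglia on days 1 to 3 (x axis) and at day 10 (y axis) from 1 fit over all phases, with equality on the dashed line. Sparc, Cst7, Chil3 and Ccr2 lie near that line, Fabp5 falls from 3.62 to 0.11, and Mki67 and Hist1h1b cross from the negative to the positive side.

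Fabp5 is the fatty acid binding protein named in the title of the series (chr3:10012548-10016607, plus strand). It was called higher in early macrophages and was not called in either direction at day 10. On days 1 to 3 its lowest, median and highest levels were 1123, 3594 and 13838 CPM in macrophages and 142, 221 and 1157 CPM in microglia, higher in macrophages in 8 of 8 libraries (log2 difference 3.62, SE 0.46, adjusted p = 2.6e-06). At day 10 it was at 1157, 4216, 607 and 397 CPM in the macrophages of infiltrating 2, resident 1, mixed 1 and mixed 2, and at 3044, 596, 640 and 532 CPM in their microglia. Macrophages were above microglia in resident 1 alone, and the log2 difference was 0.09 (SE 0.62, adjusted p = 0.96). The difference between phases was -3.51 (SE 0.80, adjusted p = 0.0057). It was not called without the library block (-3.32, adjusted p = 0.053), with a minimum of 50 cells (-2.92, adjusted p = 0.074) or against day 1 alone (-2.30, adjusted p = 0.17).

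Composition moved with the day 10 level of Fabp5, and its part in the result was not tested. Among macrophages it was at 3453 CPM in cluster 9 and 2004 CPM in cluster 3, but at 60.4 CPM in cluster 13 and 228 CPM in cluster 10. Among microglia it was at 2605 CPM in cluster 2, which held 18 of the 36 microglia of infiltrating 2, and at 359 CPM in cluster 4. Within cluster 9, Fabp5 was at 1301, 4333, 2121 and 646 CPM in infiltrating 2, resident 1, mixed 1 and mixed 2. With cluster 9 as the only macrophages the day 10 log2 difference was 1.01 (adjusted p = 0.32), and the difference between phases, against the 2 early libraries left, was -3.37 (adjusted p = 0.013).

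Gpnmb, a glycoprotein of phagocytes loaded with lipid, was higher in macrophages in both phases. At day 10 it was at 1265, 4382, 763 and 320 CPM in macrophages and at 654, 95.4, 135 and 71.5 CPM in microglia (log2 difference 2.64, SE 0.67, adjusted p = 0.046, higher in 4 of 4 libraries). The types overlapped, since the microglia of infiltrating 2 were above the macrophages of mixed 2. In the fit over all phases the early difference was 6.16, the day 10 difference 2.68 and the difference between phases -3.48 (adjusted p = 0.011). The day 10 call was lost without infiltrating 2 (adjusted p = 0.051), without mixed 1 (0.065) or without mixed 2 (0.067). The call between phases was lost in 11 of 27 alternatives, among them without the library block (-2.10, adjusted p = 0.44), without mixed 1 (-3.35, adjusted p = 0.069), without mixed 2 (-3.20, adjusted p = 0.074), without cluster 10 (-2.69, adjusted p = 0.059), with cluster 9 alone and 2 early libraries (-1.97, adjusted p = 0.64) and with equal weight per cell (-1.58, adjusted p = 0.13). In microglia Gpnmb had been at a median of 7.21 CPM on days 1 to 3.

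Apoe, the lipoprotein of lipid efflux, was the most abundant of the genes named here. It was at 71968, 127801, 25017 and 26085 CPM in macrophages and at 42455, 59571, 50945 and 61033 CPM in microglia, so the macrophages were above in infiltrating 2 and resident 1 and below in both mixed libraries (log2 difference -0.11, SE 0.43, adjusted p = 0.92). The early difference was 1.49, higher in macrophages in 8 of 8 libraries, and the difference between phases was not called (-1.59, adjusted p = 0.088), although it passed in DESeq2 (-1.64, adjusted p = 0.0495), without resident 1 (-2.05, adjusted p = 0.025) and with no low-count filter (-1.57, adjusted p = 0.0013). By cluster Apoe was at 125440 CPM in cluster 9 and 105119 CPM in cluster 3 macrophages, at 1918 CPM in cluster 13, and at 0 of 888932 UMIs in cluster 10. That 0 stands in libraries whose microglia hold Apoe at 42455 CPM or more, and whether the deposited counts were corrected for free RNA is not given in the sources used here. Cluster 10 gave most UMIs of the mixed macrophage sums, and without it the difference was 0.57 (adjusted p = 0.082). Whether a correction of the counts has a part in these values was not tested. With cluster 9 as the only macrophages the day 10 difference was 1.19 (adjusted p = 2.0e-04). In microglia the median had been 3128 CPM on days 1 to 3.

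Ms4a7 and Lyz2, a tetraspan protein of infiltrated macrophages and lysozyme, were higher in macrophages at day 10, although both calls were lost without the library block (Ms4a7 2.36, adjusted p = 0.095, and Lyz2 2.17, adjusted p = 0.073). Ms4a7 was at 1075, 1805, 423 and 303 CPM against 642, 142, 68.8 and 51.1 CPM (log2 difference 2.42, SE 0.45, adjusted p = 0.012), after 4.73 early. Its difference between phases of -2.29 (adjusted p = 0.035) lost its call in 18 of 27 alternatives. Lyz2 was at 24962, 48616, 12488 and 12934 CPM against 15741, 1734, 2977 and 2671 CPM (log2 difference 2.35, SE 0.59, adjusted p = 0.043), after 4.31 early with no difference between phases called (-1.95, adjusted p = 0.11), and its day 10 call was lost without mixed 2 (adjusted p = 0.087). In both genes the microglia of infiltrating 2 were several times above the other microglia and overlapped the macrophages. The galectin Lgals3 (1.56, adjusted p = 0.072), the lipid sensor Trem2 (-1.48, adjusted p = 0.13) and osteopontin, Spp1 (-1.05, adjusted p = 0.096) did not pass the day 10 test. Lgals3 passed in the fit over all phases (1.57, adjusted p = 0.021) and without infiltrating 2 (2.12, adjusted p = 0.0054). Trem2 passed in the fit over all phases (-1.47, adjusted p = 0.019) and without resident 1 (-1.93, adjusted p = 0.036), and Spp1 without resident 1 (-1.46, adjusted p = 0.0039). Fabp4 was higher (3.36, adjusted p = 0.021) in 3 of 4 libraries, since the macrophages of infiltrating 2 (19.8 CPM) were below its microglia (23.8 CPM). Its call was lost without mixed 1 (2.86, adjusted p = 0.11) and with equal weight per cell (1.57, adjusted p = 0.078).

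Several genes that had separated the types early were low in both at day 10. The chemokine Ccl7 was at 303 to 2296 CPM in early macrophages and at 0 to 2.78 CPM in those of day 10 (difference between phases -5.31, adjusted p = 0.0018). Cxcl2 (-5.70), the matrix protein Thbs1 (-4.94) and the cystine transporter Slc7a11 (-3.84) had the same direction and were at most 12.98 CPM in any day 10 macrophage sum. The Cxcl2 call was lost in 8 of 26 alternatives, among them without the library block (adjusted p = 0.69), at equal depth (0.22) and without cluster 10 (0.078), and the Slc7a11 call in 6 of 27, among them without the block (0.19) and at equal depth (0.23). The Ccl7 and Thbs1 calls were each lost in 1 of 27 alternatives, with cluster 9 as the only macrophages. The platelet chemokine Pf4 was higher in early macrophages and not at day 10: it was at 38.0, 24.1, 26.0 and 16.6 CPM in day 10 macrophages and at 107, 119, 68.4 and 29.4 CPM in microglia (log2 difference -1.54, adjusted p = 0.014), after 3.41 early, with a difference between phases of -4.95 (adjusted p = 1.7e-04). The groups overlapped at their edge, and Pf4 was lower in macrophages in 4 of 4 libraries. Its day 10 call was lost in 7 of 18 alternatives, among them the fit over all phases (-1.54, adjusted p = 0.080), without cluster 10 (-1.11, adjusted p = 0.052), without mixed 1 (-1.51, adjusted p = 0.11) and with equal weight per cell (-0.36, adjusted p = 0.60).

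The lists differed in the test between phases, where 3.35% of all genes were lower and 7.19% higher. Of 23 lipid handling genes 9 were lower and 0 higher, Fabp5 among them, and 3 were lower without cluster 10. Of 17 chemokine ligands 6 were lower, of 15 immediate early genes 7 and of 15 complement genes 5, with 0 higher in each. Without cluster 10 these became 3, 4 and 2. Of 23 damage-associated genes 7 were lower and of 22 glycolysis genes 5, and without cluster 10 these became 2 and 2. Of 23 lysosomal hydrolases and of 16 cytokine genes 4 were lower, and without cluster 10 0 were. Of 22 integrin and adhesion genes 4 were lower, of 15 matrix protease genes 4, of 24 transcription factors 3, of 18 heme and iron genes 3 and of 16 Toll-like receptor genes 3, and of 19 Fc and inhibitory receptors 4 were lower and 1 higher. Without cluster 10 the lower genes of these lists became 1, 2, 2, 2, 0 and 0, and the higher one was lost. Fewer calls were made in the remaining lists: 0 of 18 interferon and 0 of 12 class II genes were called, 1 of 7 chemokine receptors and 2 of 13 TGF-beta genes were lower, and of 13 S100 and annexin genes 1 was higher and 2 lower. None of these calls in the receptor, TGF-beta and S100 lists was made without cluster 10.

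Cell cycle genes changed between phases, and their count depended on cluster 10. Early on, 20 of 20 were lower in macrophages, and at day 10 the edgeR test called 0 of 18 in either direction (9 at an unadjusted p under 0.05, and 8 of 20 higher in the fit over all phases), with a median of 1.84. All 20 were higher in the test between phases, and without cluster 10 only Mki67, Stmn1 and Cdk1 were. Without cluster 10 the day 10 median was -1.33, with 5 of 8 tested lower in macrophages. Mki67, a marker of dividing nuclei, was at 74.4, 5.56, 190 and 153 CPM in day 10 macrophages and at 0, 11.97, 30.4 and 8.17 CPM in microglia, and by cluster at 330 CPM in cluster 10 and at 252 CPM in microglial cluster 6. The replication histone Hist1h1b was at 223, 16.7, 1186 and 938 CPM in macrophages and at 11.9, 16.9, 91.5 and 43.4 CPM in microglia. Resident 1, with 1 cell of cluster 10, was the library where macrophages were below microglia for both genes. The make-up of the microglia also changed. Cluster 6 was 19.3% of early microglia and 19.3% of their UMIs, against 4.62% and 3.93% at day 10. Cluster 5 fell from 39.0% to 4.19% of microglia, and cluster 4 rose from 6.15% to 32.3%. Early Mki67 had a median of 106 CPM in microglia and 6.44 CPM in macrophages. The part of the microglial clusters in the cell cycle calls was not tested.

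At day 21, with 1 infiltrating and 1 mixed library, 33 genes differed (0.344%), 23 higher (0.240%) and 10 lower (0.104%) in macrophages. Sparc was at 1.47 and 430 CPM in macrophages and at 600 and 1334 CPM in microglia, and Chil3 at 153 and 2.99 CPM against 0 and 0. Fabp5 was at 456 and 1849 CPM against 1722 and 1186, and Apoe at 39722 and 97368 CPM against 51560 and 68188. None of these 4 genes passed the test there (log2 differences -3.58 for Sparc and -0.64 for Fabp5). Cxcl2, near 0 at day 10, was at 4.41 and 2879 CPM in macrophages and at 0 and 1.96 CPM in microglia (log2 difference 10.62, adjusted p = 6.8e-07), so its level came from the mixed library.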

How the data were processed

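Libraries were prepared from myeloid cells sorted from injured cord. For each library the authors deposited a matrix of unnormalised UMI counts, and for all cells a table of cluster and cell type codes with the percent of mitochondrial UMIs per cell. Cell Ranger 3.1.0 and GRCm38/mm10 are named in the submitters' processing notes; cell filters, any correction for free RNA and the way the codes were made are not given in the sources used here. Deposited totals equalled the summed counts for all 30958 cells, libraries shared 0 barcodes, and no column of values was left unmapped. No doublet caller was run here.

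Counts were summed per library and code (at least 20 cells each) and tested with edgeR 4.0.16 in R 4.3.3: the filterByExpr filter, then TMM factors, then quasi-likelihood tests with p-values adjusted after Benjamini and Hochberg (threshold 0.05). Library was a block, because both sums of a library come from the same cell suspension. Days 1 to 3, 10 and 21 were fitted together for the difference between phases. The code was tested on simulated counts in which 200 genes were changed. The day 10 test recovered 34% of log2 changes of 1 and 92% of log2 changes of 2, with 7 false calls. The test between phases recovered 7% and 60%, with 0 false calls. A gene that was not called can therefore still differ. CPM are counts per 1000000 UMIs of the sum. p-values measure only the spread between these libraries, and intervals and floors cover counting error only.

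Named genes were the 10 with the largest and the 10 with the smallest log2 difference at day 10 (same sign in all 4 libraries, at least 50 CPM in the higher type), the 6 furthest in each direction between phases, 27 fixed genes and the leading members of each list. Some named genes and list members are not reported here. Members and lists were chosen with earlier results of these data known. Alternatives were RLE scaling, DESeq2 1.42.0, no low-count filter, no library block, at least 50 cells, equal depth, without cells over the 95th percentile of UMIs, without cluster 2, without clusters 6, 7 and 10, other early days, the fit over all phases and each library left out. Those without cluster 10, without clusters 10 and 13, with cluster 9 alone (at least 10 cells) and with equal weight per cell (limma 3.58.1 on log2 of mean CPM + 10) were chosen after seeing the data.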

Additional observations from a re-analysis of the deposited data

Results flagged for a closer look

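In the 4 day 10 libraries, 42 log2 ratios of macrophage over microglia CPM (5 CPM added) were examined for a library far from the other 3, and 5 had one. Chance alone marks about 1 in 20 such groups. Resident 1 stood apart for Itgb7, at 1.72 where the others were at 4.45 to 4.82. Infiltrating 2 stood apart for Sparc, at -6.59 against -5.22 to -4.96, for Ecscr, at -1.02 against -3.84 to -3.57, and for Cx3cr1, at 3.16 against -1.54 to -1.22. Mixed 1 stood apart for Il1b, at 2.05 against -1.70 to -1.14.

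The difference between types itself differed between days 1 to 3 and day 10 for 18 named genes (edgeR, adjusted p under 0.05). It was lower at day 10 for Cxcl2 (-5.70), Ccl7 (-5.31), Pf4 (-4.95), Thbs1 (-4.94), Rgl1 (-3.86), Slc7a11 (-3.84), Fabp5 (-3.51), Gpnmb (-3.48), Itgax (-3.23), Ms4a7 (-2.29) and Lgals3 (-1.85). It was higher for Hist1h3c (7.82), Serpinb1a (7.66), Hist1h1b (7.36), Hist1h2ab (7.13), Hist1h1a (7.08), Hist1h2ae (6.93) and Mki67 (6.25).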

How the results depend on the processing

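Of 36 named genes called at day 10, 24 were called in every alternative that could test them, but of 18 called between phases only Pf4 was. The 522 genes at day 10 became 1641 with no low-count filter, 795 without the library block (no pairing), 1469 in the fit over all phases, 333 with equal weight per cell, and 237 to 1065 when 1 library was left out. The 3665 early genes became 1053 with day 1 alone, 900 with cluster 9 alone, 3375 without the library block and 2908 to 3827 with 1 library left out. The 1011 genes between phases became 655 without the library block, 570 with at least 50 cells, 629 without the cells of highest UMI count, 180 without clusters 6, 7 and 10, 323 with day 1 alone, 200 without cluster 10, 228 without clusters 10 and 13, 13 with cluster 9 alone, 375 with equal weight per cell, and 362 to 1424 with 1 library left out. The sign turned, with a call on at least one side, for Apoe at day 10 (1.10 without clusters 10 and 13, 1.19 with cluster 9 alone), for Hist1h2ae at day 10 (-1.35 without cluster 10, -1.44 without clusters 10 and 13, -1.36 with cluster 9 alone) and, between phases, for Siglech (-2.89, day 1 alone), Slc7a11 (0.46, cluster 9 alone), Hist1h3c (-0.44 without cluster 10, -0.17 without clusters 10 and 13, -3.29 with cluster 9 alone), Hist1h1b (-3.58) and Hist1h2ab (-2.78), both with cluster 9 alone. With no call on either side, Apoe at day 10 also turned positive in 7 alternatives (0.30 to 0.66), and Fabp5 at day 10 was -0.70 without resident 1. The alternatives overlap: at least 50 cells and without cluster 2 both drop infiltrating 2, and cluster 9 alone keeps 2 of 8 early libraries. The fits with fewer cells test fewer UMIs; otherwise the cause was not tested. Depth limits infiltrating 2 most, with 36 microglia and 84112 UMIs.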

Other observations

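Cx3cr1, the receptor whose locus carries the knock-in, was not called at day 10: it was at 465, 335, 26.0 and 21.1 CPM in macrophages and at 47.6, 786, 85.0 and 70.1 CPM in microglia of infiltrating 2, resident 1, mixed 1 and mixed 2 (edgeR log2 difference -0.72, adjusted p = 0.60). The call depended on 1 library: without infiltrating 2 the difference was -1.53 (adjusted p = 0.023). Leaving out cluster 2, which also removes that library because 18 of its 36 microglia are in it, gave -1.60 (adjusted p = 0.018). Over all days, the lowest, median and highest microglial levels were 4.12, 17.5 and 200.8 CPM in 12 Cx3cr1CreERT2 libraries and 47.6, 464 and 1609 CPM in 7 Cx3cr1CreERT2:R26tdTomato libraries. Median P2ry12 was 289 and 203 CPM in the same groups. Among these libraries each sort was used in 1 strain only, so strain cannot be told apart from sort. Within Cx3cr1CreERT2:R26tdTomato, resident sorts were at 340 to 1609 CPM. Infiltrating sorts were at 47.6 CPM (day 10) and 195 CPM (day 21). Days also differed between the strains: the day 1 libraries, at 4.27 to 6.96 CPM, were all Cx3cr1CreERT2.

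The infiltrating 1 library of day 10 held 10 microglia, under the minimum of 20, and 549 macrophages, 78.7% of them in cluster 9. Its macrophages held Gpnmb at 1879 CPM, Fabp5 at 2191 CPM, Apoe at 111997 CPM, Lyz2 at 35038 CPM, Chil3 at 64.2 CPM, Ccr2 at 80.3 CPM, Mki67 at 9.42 CPM and Sparc at 5.45 CPM. These values are those of 1 library and enter no test.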
